A study of Mus musculus with 4 samples.

Results

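The 8 genes examined encode amino acid transporters of the plasma membrane that are known to be induced by cellular stress: Slc7a11, Slc7a5, Slc3a2, Slc1a5, Slc1a4, Slc38a2, Slc7a1 and Slc6a9. They were chosen by name from the deposited table, and all 8 were among its 14984 genes. The table holds ribosome footprints, the mRNA fragments that translating ribosomes protect from nuclease, from whole mouse testes at day 10. The 2 Eif5 cKO libraries came from mice made by combining a floxed Eif5 allele (Eif5fl/fl) with Stra8-Cre, which acts in germ cells, so that somatic cells of the testis keep Eif5. The 2 Control libraries came from mice whose genotype the labels do not give. Eif5 encodes eIF5, the factor that makes eIF2 hydrolyse its GTP at the start codon. The labels do not say whether testes were pooled or whether each library is a different animal. Each p-value therefore rests only on spread between these libraries, which may be technical. In the limma fits below, that spread was drawn mostly from all genes tested (37.0 prior and 2 residual degrees of freedom).

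When eIF2 is phosphorylated by a stress kinase, general initiation slows while translation of Atf4 increases. ATF4, with partners such as CHOP, binds composite elements in genes for amino acid uptake, amino acid synthesis and tRNA charging, a programme known as the integrated stress response. The transporters of this programme restock the cell: xCT (Slc7a11) brings in cystine for glutathione, LAT1 (Slc7a5) large neutral amino acids, CAT1 (Slc7a1) arginine and lysine, and the others serine, alanine, glutamine and glycine. In the seminiferous tubule, Sertoli cells supply germ cells with nutrients, so transporter footprints of a whole testis can come from either compartment.

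None of the stress-induced transporters was called higher or lower in Eif5 cKO testes at a Benjamini-Hochberg adjusted p under 0.05, a rule by which 9 genes were higher (0.0744% of genes tested) and 73 were lower (0.604%). Of the 7 that passed the filter on low counts, 6 had a higher mean in Eif5 cKO than in Control, by 1.05-fold to 1.37-fold on the fitted scale, and Slc6a9 had a lower one (50.3% of all genes tested had a positive fold change). The arginine transporter Slc7a1 and the neutral exchangers Slc1a5 and Slc1a4 were higher in both Eif5 cKO libraries than in both Control libraries, as were 20.0% of all genes tested. Slc7a5 and Slc38a2 differed by 1.05-fold and 1.06-fold, with 95% intervals of 0.755 to 1.45 and 0.773 to 1.46. Across the 7 genes the highest upper bound of an interval was 1.98-fold, for Slc1a5.

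Values are given as deposited, that is, reads of a gene divided by 1 factor per library, and are called normalised values below. Fold changes and their intervals come from limma on log2(value + 1) over 12095 genes, a scale on which changes of genes with few reads appear too small. No length of the coding sequence was at hand, so levels of different genes were not compared. The libraries held 2296938 and 2782527 reads for Eif5 cKO and 2934609 and 2225964 for Control. The targeted gene Eif5 had normalised values of 173 and 266 in Eif5 cKO and 365 and 304 in Control, a log2 fold change of -0.63 (SE 0.25, limma adjusted p = 0.319). The smallest two-sided p of an exact permutation test with 2 libraries against 2 is 0.333.

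**Figure D1:**
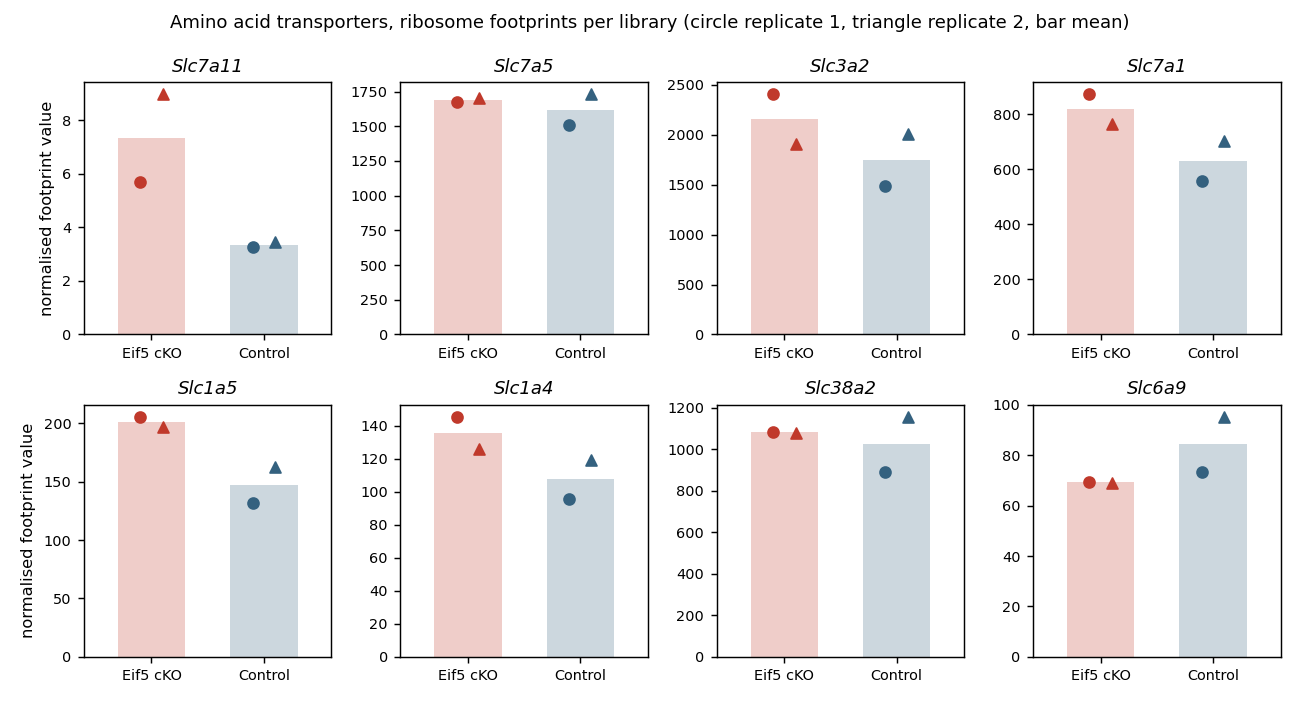
Normalised footprint value (reads divided by the library factor, vertical axis from 0) of each transporter in the Eif5 cKO libraries (left, red) and the Control libraries (right, blue). Circles are replicate 1, triangles replicate 2 and bars the mean of the 2; Control replicate 2 lay above Control replicate 1 for all 8 genes, and the groups overlap for Slc7a5, Slc3a2 and Slc38a2.

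Slc7a11 (chromosome 3, 50364936 to 50499087, GRCm38) encodes xCT, the light chain that exchanges cystine for glutamate, and is a classical target of both ATF4 and NRF2. Its promoter carries the only match to the ATF4 and CHOP element core, TGATGNAA read on either strand, among the members' promoters that could be searched. The stretch is shown because it holds 2 such matches, in capitals, in opposite orientations. It lies at chr3:50443644-50443688 on the minus strand (RefSeq, GRCm38.p6), from 75 to 31 bases before the annotated start:

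Slc7a11 promoter: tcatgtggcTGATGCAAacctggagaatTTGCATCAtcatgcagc

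RefSeq promoters were found for 6 of the 8 members, in 9 windows of 250 bases before a start, and Slc7a5 and Slc1a5 had none. The core was in 1 of these 9 windows and in 3.45% of all 32851 windows. The core of the antioxidant element, TGACNNNGC read on either strand, was in 4 of the 9 windows, those of Slc38a2, Slc7a1 and Slc6a9, and in 10.2% of all windows. No member window held both cores, so the matches did not overlap. A match describes letters only, and elements outside these windows, such as those in introns, were not searched.

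Slc7a11, the member with these letters before its start, had very few footprints. It had 5 and 10 reads in Eif5 cKO and 4 and 3 reads in Control, or normalised values of 5.68 and 8.97 in Eif5 cKO against 3.26 and 3.44 in Control. Both Eif5 cKO libraries were above both Control libraries, and the depth was too low for the gene to pass the filter. The ratio of summed reads, corrected for the library factors, was 2.25, with an exact 95% interval of 0.864 to 6.53 that covers counting error only. A difference between the groups was therefore not resolved at this depth.

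Slc3a2 (chromosome 19, 8706882 to 8723369) encodes 4F2hc, the heavy chain that carries light chains such as LAT1 and xCT to the cell surface. Its normalised values were 2406 and 1913 in Eif5 cKO and 1488 and 2004 in Control. Eif5 cKO replicate 1 was the highest and Control replicate 1 the lowest, and Eif5 cKO replicate 2 lay below Control replicate 2, so the groups overlapped. The means were 2159.5 ± 349 in Eif5 cKO and 1746 ± 365 in Control (SD, n = 2 each), a log2 fold change of 0.31 (SE 0.24, 95% interval -0.18 to 0.80, limma adjusted p = 0.696).

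Slc7a5 (chromosome 8, 121881146 to 121907686) encodes LAT1, the light chain that takes up leucine and other large neutral amino acids and so feeds mTORC1, the kinase complex that senses amino acids. Its normalised values were 1672 and 1704 in Eif5 cKO and 1507 and 1729.8 in Control. All 4 libraries were close together, with the highest and the lowest value both in Control. The means were 1688 ± 22.3 in Eif5 cKO and 1619 ± 157 in Control (SD, n = 2 each), and the log2 fold change was 0.06 (SE 0.23, limma adjusted p = 0.954).

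Because light and heavy chains work as a complex, the reads of Slc7a5 per read of Slc3a2 were compared within each library, a ratio that does not depend on how libraries are scaled. It was 0.695 and 0.891 in Eif5 cKO and 1.01 and 0.863 in Control. Eif5 cKO replicate 1 had the lowest ratio and Control replicate 1 the highest, while the other two libraries were alike. The log2 difference was -0.25 and lay within the spread between libraries (two-sided exact permutation p = 0.667, n = 2 each). Without Eif5 cKO replicate 1 it was -0.07, without Eif5 cKO replicate 2 it was -0.43, and without Control replicate 1 or replicate 2 it was -0.13 or -0.36. Reads of Slc7a11 per read of Slc3a2 were 0.00236 and 0.00469 in Eif5 cKO and 0.00219 and 0.00172 in Control. This ratio was higher in both Eif5 cKO libraries, by 0.78 on the log2 scale (two-sided exact permutation p = 0.333, n = 2 each, the smallest this design can give). It rested on 15 Slc7a11 reads in Eif5 cKO and 7 in Control, and with a library left out it ranged from 0.28 to 1.27.

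Slc7a1 (chromosome 5, 148327410 to 148399904) encodes CAT1, the main carrier of arginine and lysine into many cells, and its mRNA has been found in rat cells to be translated while eIF2 is phosphorylated. It had normalised values of 871 and 764 in Eif5 cKO and 556 and 702 in Control. Both Eif5 cKO libraries lay above both Control libraries, and the gap between the nearest values of the 2 groups was smaller than the gap between the 2 libraries of either group. The means were 817 ± 76.2 in Eif5 cKO and 629 ± 104 in Control (SD, n = 2 each), a log2 fold change of 0.38 (SE 0.23, 95% interval -0.07 to 0.84, limma adjusted p = 0.577).

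The SLC1 family holds the glutamate transporters and 2 neutral exchangers, ASCT2 (Slc1a5, chromosome 7, 16781334 to 16798274), which exchanges glutamine, and ASCT1 (Slc1a4, chromosome 11, 20302180 to 20332713), which exchanges serine and alanine. Slc1a5 had normalised values of 206 and 196 in Eif5 cKO against 131 and 163 in Control. The Eif5 cKO libraries were close together and above both Control libraries, and this was the largest fitted change among the 7 transporters tested. This corresponds to a log2 fold change of 0.46 (SE 0.26, 95% interval -0.08 to 0.99, limma adjusted p = 0.569), and 14.3% of all genes tested had a larger one.

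Slc1a4 had normalised values of 145 and 126 in Eif5 cKO against 95.5 and 119 in Control. The groups did not overlap, although Eif5 cKO replicate 2 and Control replicate 2 were near each other. The log2 fold change was 0.34 (SE 0.29, limma adjusted p = 0.730). Reads of Slc1a4 per read of Slc1a5 were 0.707 and 0.639 in Eif5 cKO and 0.727 and 0.732 in Control, a log2 difference of -0.12 (two-sided exact permutation p = 0.333, n = 2 each, the smallest this design can give).

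Slc38a2 (chromosome 15, 96687392 to 96699728) encodes SNAT2, a sodium-coupled carrier of alanine, glutamine and other small neutral amino acids that cells make more of when amino acids run short. Its normalised values were 1084 and 1077 in Eif5 cKO and 892 and 1156 in Control. The Eif5 cKO values fell between the 2 Control values. The means were 1080.2 ± 5.04 in Eif5 cKO and 1024 ± 187 in Control (SD, n = 2 each), with a log2 fold change of 0.09 (SE 0.23, limma adjusted p = 0.931).

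Slc6a9 (chromosome 4, 117835258 to 117869305) encodes GlyT1, which takes up glycine with sodium and chloride. It had normalised values of 69.3 and 69.1 in Eif5 cKO and 73.4 and 95.3 in Control. Both Eif5 cKO libraries were below both Control libraries, by a margin smaller than the difference between the Control libraries. On the log2 scale Slc6a9 was at -0.27 (SE 0.34, 95% interval -0.95 to 0.41, limma adjusted p = 0.834).

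**Figure D2:**
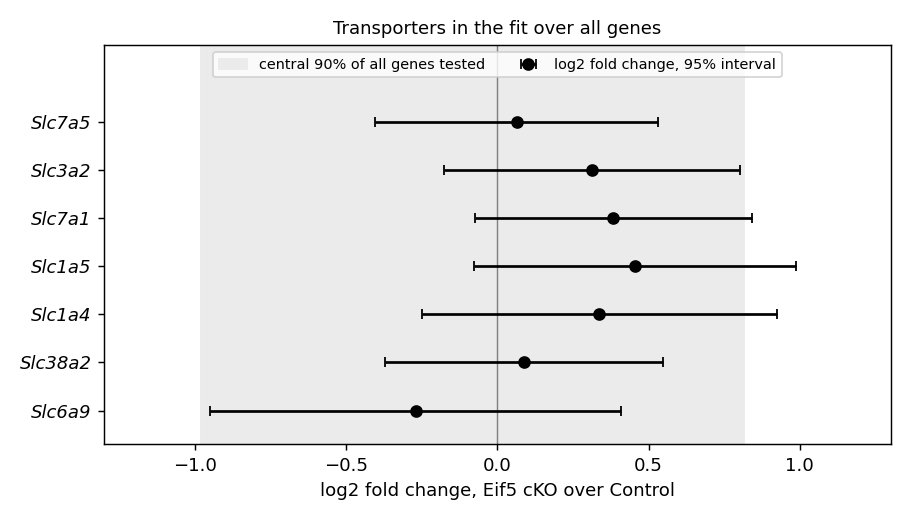
Log2 fold change of Eif5 cKO over Control (horizontal axis) for the 7 transporters tested, with points for the limma estimate and bars for its 95% interval; the grey band spans the central 90% of all 12095 genes, from -0.98 to 0.81. Every interval includes 0, and every estimate lies within the band.

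The transporters were also read against all genes. limma called 0 of 7 in either direction, and 0 of 7 had an unadjusted p under 0.05, against 10.6% of all genes tested. edgeR, DESeq2 and limma-voom on the recovered reads also called 0 of 7, with 0 at an unadjusted p under 0.05. The median log2 fold change of the 7 was 0.31, beside 0.003 over all genes, and 6 of 7 were positive, beside 50.3% of all genes. Groups did not overlap for 3 of 7 with Eif5 cKO higher (20.0% of all genes) and for 1 of 7 with Eif5 cKO lower (20.9% of all genes). With 7 genes, these counts are a description only.

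The transporters also varied between libraries of the same group. Eif5 cKO replicate 1 held the highest value of 4 of the 7 genes and Control replicate 2 that of the other 3. Control replicate 1 held the lowest value of 6 of the 7, the exception being Slc6a9. Within Control, replicate 2 exceeded replicate 1 for all 8 members, by 5.49% to 34.7%. Within Eif5 cKO, replicate 1 was higher for 6 of the 8, with differences of 0.309% to 58.0%, the largest being that of Slc7a11 with its few reads.

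The median over the 7 depended on which libraries entered. Without Control replicate 1, the median log2 fold change was 0.10, with 4 of 7 positive, and Slc7a5 and Slc38a2 had negative values of -0.04 and -0.10. Without Control replicate 2 the median was 0.50, without Eif5 cKO replicate 1 it was 0.15, and without Eif5 cKO replicate 2 it was 0.44. Without Control replicate 1, Slc1a5 was at 0.30, Slc7a1 at 0.22 and Slc1a4 at 0.18 on the log2 scale, and Slc6a9 at -0.46. No transporter was called with any library left out, and the lowest adjusted p in these fits was 0.430, for Slc7a1 without Eif5 cKO replicate 2.

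**Figure D3:**
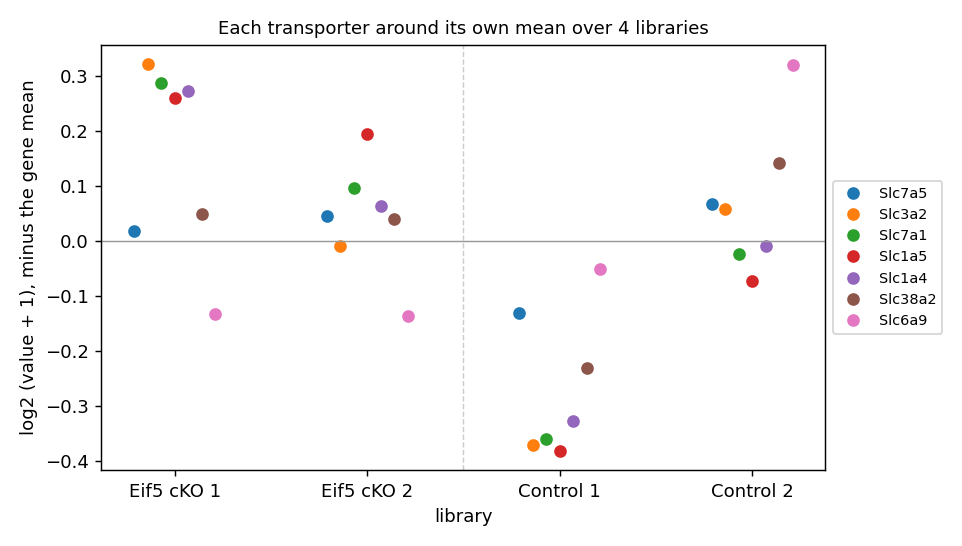
Log2(value + 1) of each of the 7 tested transporters minus its own mean over the 4 libraries (vertical axis), with the Eif5 cKO libraries left of the Control libraries and 1 colour per gene, offset sideways for clarity. Control replicate 1 holds the lowest point of 6 of the 7 genes. Slc6a9 is lowest in the Eif5 cKO libraries, whose values were nearly equal (0.309% apart).

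Markers of other cell types also differed between the libraries. In footprints of bulk tissue, fewer cells of a type, less RNA per cell and less translation per RNA cannot be told apart. The summed normalised value of 15 Sertoli cell markers was 95138 and 66085 in Eif5 cKO and 48984 and 68229 in Control. The summed value of the 8 transporters was 6460 and 5857 in Eif5 cKO and 4746 and 5973 in Control, with the libraries in the same order: Eif5 cKO replicate 1 highest, then Control replicate 2, then Eif5 cKO replicate 2, and Control replicate 1 lowest. Of the single transporters Slc3a2 alone had this order, and it held 33.7% of the reads of the 8. The 9 Leydig cell markers summed to 3183 and 2880.1 in Eif5 cKO and 1789 and 2174 in Control, and the 10 macrophage markers to 1688 and 1763 in Eif5 cKO and 1151 and 1387 in Control. Of the Sertoli, Leydig and macrophage markers tested, 0 of 14, 0 of 8 and 0 of 9 were called. Their median log2 fold changes were 0.40, 0.71 and 0.47. Myoid markers went the other way, with sums of 6333 and 5140.1 in Eif5 cKO and 6397 and 6617 in Control, a median log2 fold change of -0.20 and 0 of 6 called. Endothelial markers summed to 1317 and 980 in Eif5 cKO and 996 and 1138 in Control (median 0.07, 0 of 7 called). Erythroid markers summed to 311 and 165 in Eif5 cKO and 182 and 154 in Control (median 0.51, 0 of 4 called).

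Markers of differentiating and meiotic germ cells were lower in Eif5 cKO. Over all genes tested, 0.604% were called lower. The 15 meiotic markers summed to 1230.3 and 1540 in Eif5 cKO and 3954 and 3553 in Control, and 10 of the 13 tested were called lower. The 7 markers of differentiating spermatogonia summed to 1251 and 1179.8 in Eif5 cKO and 2333 and 2166 in Control, with 2 of 7 called lower. Of 8 markers shared by germ cells of several stages, 4 were called lower, with sums of 1974 and 2304 in Eif5 cKO and 4801 and 4490.4 in Control. The 10 detected markers of undifferentiated spermatogonia summed to 832 and 829.9 in Eif5 cKO and 896 and 783 in Control, with 0 of 8 called. Testicular cell types of both compartments were thus detected, while Eomes was not in the table and Nanos2, Spo11, Meiob and Alas2 had 0 reads in at least 1 library. The part of these marker differences in the transporter values was not tested.

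Scaling the libraries on the Sertoli markers, leaving out the abundant Clu, moved the median of all genes to -0.51. The 7 transporters were then all below 0 on the log2 scale. Their median was -0.21, which is 0.30 above that of all genes. Slc1a5 was at -0.07 and Slc6a9 at -0.79, and none was called. This scaling lowers all genes nearly alike, so the distance to the median of all genes changes little by construction (0.31 with the deposited scaling). A sign on this scale is relative to the Sertoli markers, and what it reflects was not tested.

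The other amino acid transporters likewise gave no call. Of 48 genes listed, 31 were in the table and 24 were tested, with 0 called higher and 0 called lower, a median log2 fold change of 0.17, and 16 positive and 8 negative values. An unadjusted p under 0.05 was reached by 3 of the 24, all higher in Eif5 cKO, a share near the 10.6% of all genes tested. Slc25a12, a mitochondrial carrier that exchanges aspartate for glutamate, had normalised values of 87.5 and 74.5 in Eif5 cKO and 38.4 and 31.0 in Control (log2 fold change 1.20, SE 0.39, limma adjusted p = 0.174). Slc1a3, the glutamate transporter GLAST, had 76.1 and 70.0 in Eif5 cKO and 49.8 and 16.1 in Control (1.33, SE 0.45, limma adjusted p = 0.199). The other was Slc1a6, a glutamate transporter of the same family, with 253 and 175 in Eif5 cKO and 133 and 122 in Control (0.72, SE 0.27, limma adjusted p = 0.279). Slc1a6 was named after its values were seen. For both glutamate transporters and Slc25a12 the Eif5 cKO libraries lay above the Control libraries, as for 20.0% of all genes tested. Their fitted changes were larger than any of the 7 stress-induced transporters tested, and none of these 3 genes passed the threshold.

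Of 8 other heavy and light chains listed, which include Slc3a1, a relative of Slc3a2, 3 were tested. The one with the smallest p, Slc7a7 (y+LAT1, which exports cationic amino acids), had 3 and 3 reads in Eif5 cKO and 13 and 17 reads in Control (log2 fold change -1.94, SE 1.05, limma adjusted p = 0.530). It passed the filter on low counts only through the Control libraries, where it is higher, so this change is a description. In the remaining families the gene with the smallest p was Slc38a7, a lysosomal glutamine carrier (0.63, SE 0.34), Slc6a14, a broad importer of neutral and cationic amino acids (0.58, SE 0.32), and Slc7a4, a relative of the cationic transporters (0.31, SE 0.27). All 3 were higher in both Eif5 cKO libraries than in both Control libraries, as were 20.0% of all genes tested. None of the 3 passed, at limma adjusted p = 0.526, 0.533 and 0.730.

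**Figure D4:**
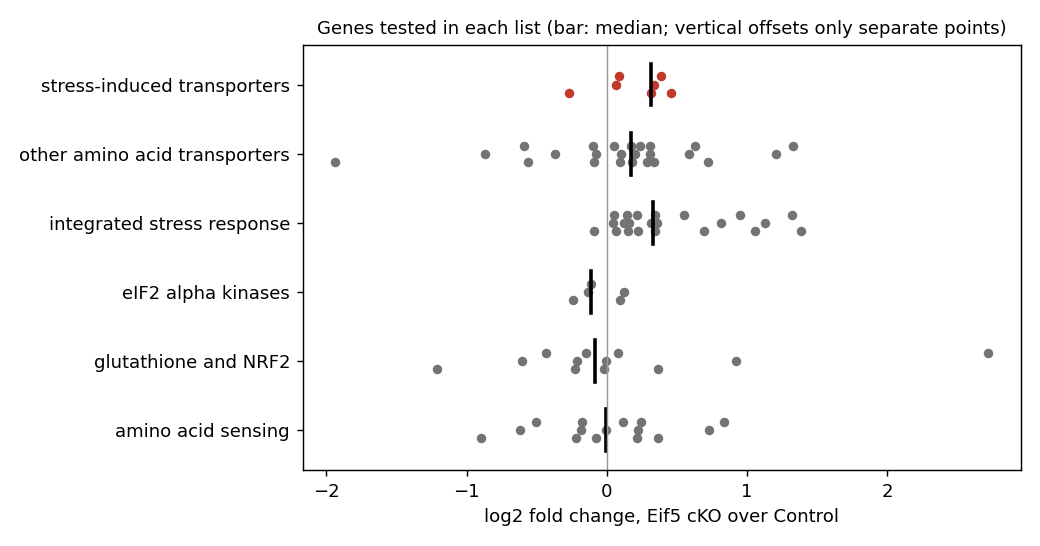
Log2 fold change of Eif5 cKO over Control (horizontal axis) of the genes tested in each list, 1 point per gene, with a black bar at the list's median. The stress-induced transporters (red, 7 genes) have a median of 0.31, the other amino acid transporters one of 0.17 and the integrated stress response genes one of 0.33, and no point shown passed the threshold.

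The remaining genes of the pathway were set beside the transporters. Of 26 integrated stress response genes that are not transporters, 22 were tested and 0 were called, with 21 positive values, a median log2 fold change of 0.33, and 5 at an unadjusted p under 0.05. Atf4, the transcription factor of the response, had normalised values of 168 and 177 in Eif5 cKO and 70.2 and 112 in Control (log2 fold change 0.95, SE 0.29, 95% interval 0.35 to 1.54, limma adjusted p = 0.151). Groups did not overlap for 11 of the 22, in each case with Eif5 cKO higher. Over all genes tested, 50.3% were positive, 10.6% had an unadjusted p under 0.05 in either direction, and 20.0% did not overlap with Eif5 cKO higher. The values of Atf4 and the transporters stand side by side without a test of their difference.

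The eIF2 alpha kinases and their phosphatase partner, which act before Atf4, had a median of -0.11 over 5 genes with 0 called. Eif2ak3, the endoplasmic reticulum kinase PERK, had the smallest p (-0.24, SE 0.34, limma adjusted p = 0.857). Genes that use cystine for glutathione or answer to NRF2 had a median of -0.08 over 12 genes, with 0 called. Gss, glutathione synthetase, had 35.2 and 18.8 in Eif5 cKO and 49.8 and 74.6 in Control (log2 fold change -1.21, SE 0.45, limma adjusted p = 0.278). Amino acid sensing genes of mTORC1 had a median of -0.01 over 15 genes, with 0 called. Rragc, a Rag GTPase that brings mTORC1 to the lysosome, had 174 and 214 in Eif5 cKO and 95.5 and 122 in Control (0.83, SE 0.28, limma adjusted p = 0.193).

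Of the 76 pathway genes tested that are not among the 8, those whose pattern over the 4 libraries was nearest the median pattern of the transporters were Ddit4, Stc2 and Slc38a10. Likeness was the root mean square distance between log2 values centred on each gene's mean, which was 0.05, 0.08 and 0.11. Ddit4, an mTORC1 inhibitor induced by ATF4, had normalised values of 335 and 309 in Eif5 cKO and 225 and 285 in Control. Stc2, a secreted glycoprotein, had 132 and 125 in Eif5 cKO and 91.4 and 109 in Control. Both were lowest in Control replicate 1 and highest in Eif5 cKO replicate 1, like Slc3a2, Slc1a5, Slc1a4 and Slc7a1, and with 4 libraries such likeness is a description only.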

How the data were processed

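Bowtie2, STAR, featureCounts and the build GRCm38 are named, without versions or settings, in the submitters' processing notes. The deposited table, labelled raw counts by its headers, holds signal values that are not whole. Each is a whole multiple of 1 value per column, so whole reads were recovered for 100% of values (tolerance 1e-06). The divisors, 0.871 to 1.23, equal median-of-ratios size factors recomputed from those reads. Every listed gene had at least 10 reads in total.

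limma 3.58.1 (R 4.3.3) modelled log2(value + 1) on genotype alone, with a variance trend, over the genes kept by edgeR 4.0.16 (filterByExpr, minimum count 10), and p-values were adjusted over all of them. It had 2 residual and 37.0 prior degrees of freedom. The fits were tested on simulated data, with the outcome not reported here, and no result above rests on that run. All members were named, and in each pathway list the gene with the smallest p, any called gene and the 3 nearest profiles. The members and lists were chosen with earlier results of these data known. Alternatives were edgeR, DESeq2 1.42.0 and limma-voom on recovered reads, other scalings, pseudocounts, filters, left-out libraries and a replicate block. The sources used here do not state how multi-mapping reads or strand were handled. Coordinates and promoters came from RefSeq (GRCm38.p6). Levels per coding length were planned and not computed, as no coding lengths were used here.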

Additional observations from a re-analysis of the deposited data

How the results depend on the processing

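No transporter was called under any of the 15 alternatives, and the sign of each was the same as reported in all of them, except under scaling on the Sertoli list, where the median of all genes moved to -0.51 and all 7 were negative (Slc7a5 -0.46, Slc38a2 -0.44, Slc3a2 -0.21, Slc1a4 -0.18, Slc7a1 -0.14, Slc1a5 -0.067), and without Control replicate 1, where Slc7a5 and Slc38a2 were negative. With a library left out, Slc7a5 ranged from -0.035 to 0.16 and Slc38a2 from -0.098 to 0.28 on the log2 scale. With no filter, Slc7a11 entered the fit at a log2 fold change of 0.91 (limma adjusted p = 0.836). Genes called over the whole table were 73 lower and 9 higher. Higher calls numbered 19 with limma-voom and 14 with library totals, edgeR called 80 lower and 12 higher, and DESeq2 50 lower and 6 higher. Scaling on the Sertoli list gave 382 lower and 1 higher, a transporter median of -0.21 and 3 calls among the pathway genes (Gss, Mtor and Fnip1, all lower). With a library left out, lower calls ranged from 9 to 244 and higher calls from 1 to 102, the transporter median from 0.10 to 0.50, and pathway calls from 0 to 1 (Fnip1, without Eif5 cKO replicate 2). With the replicate block, 14 genes were called higher. Deviations of same-numbered libraries had a correlation over genes of -0.047. With 2 libraries per group, this value cannot settle whether the numbers pair the libraries. The block changed no transporter call. Causes of these shifts were not tested. Levels per coding length, and their alternative, were not run. Depth limits Slc7a11 most.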

Other observations

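Some list genes outside the naming rule had larger changes than any of the transporters tested, and 3 are given here, chosen after their values were seen. They are not the only ones. In the integrated stress response list, the largest changes were those of Nupr1 (log2 fold change 1.39) and Pycr1 (1.32). Ddit3 (1.12), Ppp1r15a (1.05), Psph (0.81), Vldlr (0.69) and Atf3 (0.55) were also larger than any of the transporters tested, as was Atf4. Of the 22 genes tested in that list, 21 were positive and 1 was negative. Srxn1, the NRF2 target sulfiredoxin, had 14 and 18 reads in Eif5 cKO and 7 and 0 reads in Control (log2 fold change 2.72, SE 1.20, limma adjusted p = 0.389). It passed the filter on low counts only through the Eif5 cKO libraries, where it is higher, so this change is a description. Mtor, the kinase of mTORC1, had normalised values of 367 and 372 in Eif5 cKO and 599 and 537 in Control (log2 fold change -0.62, SE 0.23, limma adjusted p = 0.267). Fnip1, a partner of folliculin in amino acid sensing, had 68.2 and 125 in Eif5 cKO and 149 and 199.7 in Control (-0.89, SE 0.30, limma adjusted p = 0.204). For Srxn1, Mtor and Fnip1 the groups did not overlap. Over all genes tested, 20.0% did not overlap with Eif5 cKO higher and 20.9% with Eif5 cKO lower. None of the 3 passed the threshold over all genes.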
